A study of Homo sapiens with 4 samples.

Results

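Collagen genes are taken here as the genes whose array name has the form COL, a number, A and a number, as in COL4A2. The array held 44 of them, on 64 probes, among 43305 gene names with values. For all 44 the accession led to the same symbol in the RefSeq table. By class 11 were fibrillar, 6 basement membrane, 10 FACIT, 5 beaded filament (type VI), 4 transmembrane, 3 short-chain network, 2 multiplexin, 1 anchoring fibril (type VII) and 2 of other kinds (COL26A1 and COL28A1).

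Collagens are the triple-helical proteins of the extracellular matrix. The helical part of each chain is a repeat of glycine and a pair of other residues, and chains of the same or of different genes wind together into a trimer. Fibrillar collagens form fibres, type IV collagens form the sheet of the basement membrane, FACITs (fibril-associated collagens with interrupted triple helices) sit on the surface of fibres, and type XVII and type VII collagens tie a squamous cell to its basement membrane. In squamous carcinoma most fibrillar collagen is made by fibroblasts, while the tumour cells themselves make the chains of the basement membrane and its anchors.

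RNA was measured on 4 one-colour Agilent arrays. HN4 and HN30 are parent lines of human head and neck squamous cell carcinoma, established in culture and grown in DMEM with serum. Stepwise exposure to rising cisplatin, the platinum drug used against these tumours, gave HN4/DDP and HN30/DDP, which were maintained at 20 μM, with 48 h of drug stated in the labels. Every line had 1 array. No array of resistant cells without the drug was analysed here, so adaptation to the drug and its presence at harvest cannot be told apart. Each resistant line is 1 derivative of its parent cells. The comparison asked which genes differ between a resistant line and its parent cells, HN4/DDP against HN4 and HN30/DDP against HN30. Collagen mRNA was measured, not collagen protein or deposited matrix.

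A level is the log2 signal of a probe minus the 75th percentile of the array, and a difference is the level in the resistant line minus that in its parent cells. "Well above background" is the mark of the scanner software, and a signal with it is called bright and one without it dim. The scanner SD beside a difference is the error of the spots as the software gives it. With 1 array per condition, no difference between a resistant line and its parent cells can be tested or checked in replicates, and precision is limited by the number of arrays. A gene counted as called at a difference past 2 (4-fold), if the brighter array was well above background, with a second threshold of 1 (2-fold) for description.

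On every array 11 or 12 of the 12 squamous epithelial marker genes were well above background, KRT6A being dim in HN30/DDP. The keratins of this list differed widely. In HN4/DDP KRT16 was higher by 5.25 and KRT5 differed by -4.05, where HN30/DDP had 1.81 and -1.93. KRT17 was higher by 3.29 and 0.19 and KRT14 by 2.33 and 0.22, and KRT6A was higher by 3.32 in HN4/DDP and at least 183-fold lower in HN30/DDP. CDH1 (E-cadherin) was higher by 0.58 and 1.34. Of 14 fibroblast and mesenchymal marker genes, 8 were well above background on each array, and PDGFRA, DCN, LUM, THY1 and POSTN were dim on all 4. Among the bright ones, FAP (a fibroblast protease) differed by -2.74 in HN4/DDP and -2.41 in HN30/DDP, ACTA2 (smooth muscle actin) was higher by 1.09 and 2.11, and VIM (vimentin) was higher by 2.75 and 0.95. TAGLN (transgelin) differed by -0.63 and -2.84, and CDH2 (N-cadherin) by -0.19 and -2.27. The levels of these 14 genes, in units of the 75th percentile of the array, summed to 5.80 in HN4/DDP and 9.63 in HN30/DDP, with both parental lines between. The squamous genes summed to 171 in HN30/DDP and to 269 to 288 on the other arrays, but without the very bright SFN and EPCAM to 47.0 in HN30/DDP and 45.4 in HN30. Such sums compare arrays and not lists, since the probes differ. Endothelial KDR and TEK were also dim on all arrays, with 2 or 3 of 5 endothelial markers above background. VWF was dim in HN4 and at least 5.37-fold brighter in HN4/DDP, and it was higher by 1.49 in HN30/DDP. PECAM1 was dim in HN4/DDP, at least 2.0-fold below HN4. It was also dim in HN30, and HN30/DDP was at least 1.64-fold brighter. CDH5, bright on all 4 arrays, differed by -0.62 and -0.59. Of the leukocyte markers, 3 or 4 of 4 were above background. The endothelial genes summed to 0.232 to 0.324. The leukocyte genes summed to 11.7 to 13.4 on the other arrays and to 44.6 in HN30/DDP, where CD14 was higher than in HN30 by 3.49. Without CD14 the sum was 8.21 in HN30 and 5.10 in HN30/DDP. There PTPRC, the pan-leukocyte gene, was higher by 0.16, CD79A (a B cell gene) differed by -0.72, and CD3E (a T cell gene), dim on the other arrays, was at least 1.38-fold higher. HN30/DDP was also the array with the most collagen genes called higher, and the part of these markers in any collagen difference was not tested.

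Of the 44 collagen genes 29 were well above background on all 4 arrays, 10 on none and 5 on 1 to 3. The 10 genes that were dim throughout were COL1A2, COL3A1, COL11A1, COL15A1, COL19A1, COL21A1, COL22A1, COL6A3, COL6A5 and COL6A6. They include the partner chains of interstitial fibres that fibroblasts are known for, the second chain of type I collagen and the chain of type III collagen. Collagen genes well above background numbered 31 in HN4 and 32 in HN4/DDP, against 30 in HN30 and 33 in HN30/DDP. The lowest share, in HN30, was 68.2%, where 75.7% of the 18227 genes represented by a RefSeq mRNA probe were well above background.

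In HN4/DDP 2 of the 44 genes were called higher, COL17A1 and COL5A2, which is 4.55% of them against 2.24% of all genes. Lower were 3 genes, COL12A1, COL5A1 and COL8A2, which is 6.82% against 1.36% of all genes. In HN30/DDP 6 were higher, COL17A1, COL1A1, COL28A1, COL2A1, COL6A1 and COL8A2, which is 13.6% against 5.48% of all genes, and COL12A1 alone was lower, against 1.8% of all genes. The normexp background correction models the background in place of subtracting it, and here it also added an offset of 50 signal units to every spot. With it COL6A1 alone was called higher in HN30/DDP, against 1.31% of all genes. All 44 genes were represented by a RefSeq mRNA probe. Among all genes so represented 3.09% were higher and 1.81% lower in HN4/DDP, and 5.84% and 2.66% in HN30/DDP. COL17A1 was the collagen gene higher in both lines, as were 0.688% of all genes, and COL12A1 the one lower in both, as were 0.0808%. COL8A2 was called in opposite directions, as were 0.122% of all genes with this order of directions. Each of these 3 joint calls was lost under some of the 10 alternatives, as given for each gene.

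**Figure D1:**
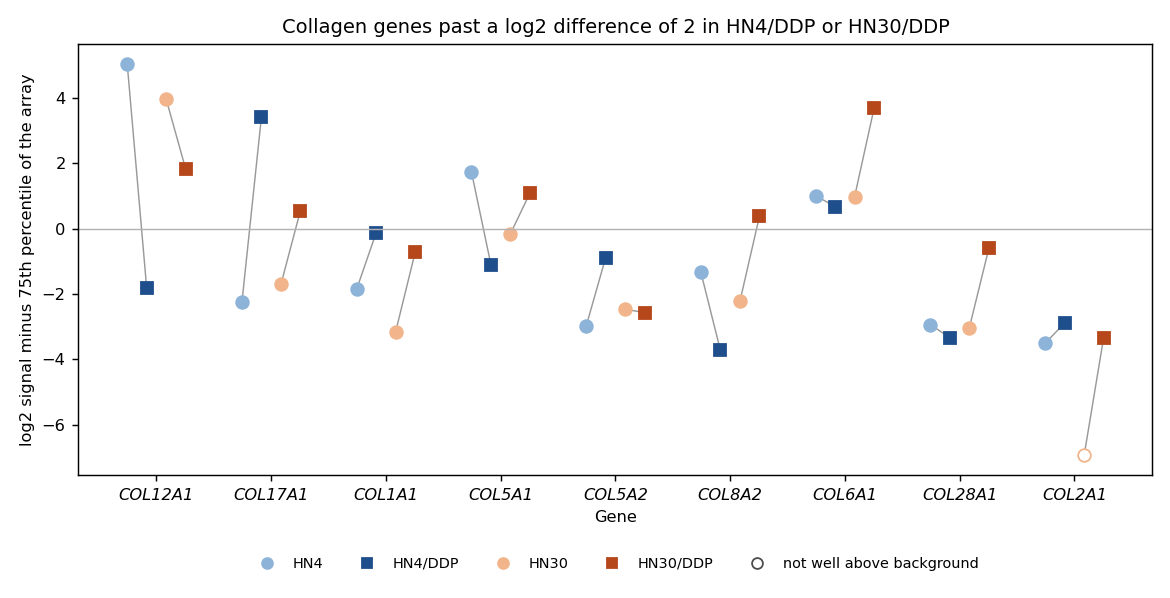
Levels of the 9 collagen genes called in at least 1 line. Each point is 1 array (vertical axis, log2 signal minus the 75th percentile of the array), circles are parent cells, squares resistant lines, grey lines join a pair and open symbols are dim. COL12A1 lies lower and COL17A1 higher in both resistant lines, while COL8A2 and COL5A1 move in opposite directions.

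COL12A1 encodes the chain of type XII collagen, a FACIT that lies along type I fibres. Its level was 5.04 in HN4 and -1.82 in HN4/DDP, and 3.96 in HN30 and 1.82 in HN30/DDP. Both resistant lines lay below both parental lines. HN4/DDP differed from HN4 by -6.86 (116-fold lower, scanner SD 0.21), and HN30/DDP from HN30 by -2.14 (4.40-fold lower, scanner SD 0.20). The HN4/DDP value was the lowest difference of all collagen genes in either line. The HN30/DDP value was within 2 under 5 of 10 alternatives, from -1.95 to -1.74.

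A second COL12A1 probe lies further toward the start of the transcript, at chr6:75822928-75822987 (hg19, minus strand), while the probe used for the gene lies at chr6:75794289-75794348. It is shown because it measures another place of the transcript, and 1 of its reading frames has no stop codon.
COL12A1, second probe: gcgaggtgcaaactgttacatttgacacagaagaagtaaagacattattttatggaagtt
Its level was 0.62 in HN4 and dim at -5.16 in HN4/DDP, against -0.57 in HN30 and -2.32 in HN30/DDP. The differences were -5.78 and -1.76, and because of the dim array the first was at least 48.9-fold. Both probes thus gave a lower signal in each resistant line, and the second probe was within 2 in HN30/DDP.

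COL17A1 encodes type XVII collagen, the transmembrane collagen of the hemidesmosome, which links the keratin network of a basal squamous cell to the basement membrane. Its level was -2.25 in HN4 and 3.41 in HN4/DDP, and -1.71 in HN30 and 0.55 in HN30/DDP. Both resistant lines lay above both parental lines. The gene was higher by 5.67 in HN4/DDP (50.9-fold, scanner SD 0.21) and by 2.26 in HN30/DDP (4.79-fold, scanner SD 0.21). The HN30/DDP value was 1.84 both with the normexp correction and with arrays scaled on their median. It had 1 probe, at chr10:105791083-105791142 (hg19, minus strand).

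The promoters of the 2 genes that passed 2 in the same direction in both lines follow, as the stretches next to the start of each transcript. They are the 250 bases before the start of COL12A1 and of COL17A1, from RefSeq on GRCh38.p14, with every match to 5 searched motifs in capitals. The motifs, read on both strands, were TGACG for the core of the cAMP response element, TGANTCA for the AP-1 site, GGGCGG for the GC box, CACCTG for an E-box and TATAAA for the TATA box. They do not overlap one another in these windows.
COL12A1, chr6:75206054-75206303, minus strand: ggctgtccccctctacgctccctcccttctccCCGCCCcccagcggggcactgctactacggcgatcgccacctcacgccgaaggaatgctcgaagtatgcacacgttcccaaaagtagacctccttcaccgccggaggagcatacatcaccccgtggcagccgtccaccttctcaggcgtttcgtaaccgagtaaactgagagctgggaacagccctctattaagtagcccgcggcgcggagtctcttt
COL17A1, chr10:104085881-104086130, minus strand: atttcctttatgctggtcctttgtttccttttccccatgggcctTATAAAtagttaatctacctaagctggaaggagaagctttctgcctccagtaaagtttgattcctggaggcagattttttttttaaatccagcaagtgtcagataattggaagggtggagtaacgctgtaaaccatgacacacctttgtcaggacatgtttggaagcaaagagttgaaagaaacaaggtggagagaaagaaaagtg

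The COL12A1 window held 1 match, the GC box read on the opposite strand as CCGCCC and beginning 218 bases before the start. The COL17A1 window held 1 match, TATAAA, beginning 206 bases before the start. Of all 35116 promoter windows of this length, 42.6% held the GC box, and TATAAA was in 3763 of them. The table had windows for 32 of the 44 collagen genes, 44 windows in all, of which 54.5% held the GC box and 8 held TATAAA. The response element core was in 21.2% of all windows and 18.2% of the collagen windows, the E-box in 17.5% and 11.4%, and the AP-1 site in 6.57% and 2.27%. These matches are descriptions of letters and not of binding.

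The partners of COL17A1 in the anchoring complex were read from a list of 7 genes, all well above background on all 4 arrays. None passed 1 in HN4/DDP in either direction, where 5.77% of all genes were higher and 5.36% lower. In HN30/DDP, where 12.9% of all genes were higher past 1, 2 of the list were, LAMB3 (a laminin chain of the epidermal basement membrane) by 1.28 and ITGB4 (the integrin chain of hemidesmosomes) by 1.26, and none was lower. In HN4/DDP, where COL17A1 differed most, ITGB4 differed by 0.06 and LAMB3 by 0.87, and the lowest value was that of LAMA3, -0.25. ITGA6, the partner of ITGB4, was the lowest in HN30/DDP at -0.52. COL7A1, whose type VII collagen forms the anchoring fibrils below the basement membrane, had levels of 1.96 in HN4 and 1.25 in HN4/DDP, against 1.91 in HN30 and 3.16 in HN30/DDP. Its difference was -0.71 in HN4/DDP and 1.25 in HN30/DDP.

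Type I collagen, the main fibre of skin and bone, normally joins COL1A1 and COL1A2 chains in one trimer. COL1A1 had levels of -1.85 in HN4 and -0.13 in HN4/DDP, and of -3.15 in HN30 and -0.72 in HN30/DDP. It was higher by 1.73 in HN4/DDP (3.31-fold, scanner SD 0.21) and by 2.43 in HN30/DDP (5.38-fold, scanner SD 0.23). Both resistant lines lay above both parental lines. COL1A1 and COL17A1 were the 2 collagen genes past 1 upward in both lines, as were 2.66% of all genes. COL12A1 was the one past 1 downward in both, as were 1.18%. COL1A2 was dim on all 4 arrays, with levels of -6.33, -6.91, -6.61 and -6.62 in the order HN4, HN4/DDP, HN30 and HN30/DDP. COL1A1 was read by 1 probe, at chr17:48261509-48261568 (hg19, minus strand).

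Type V collagen sets the width of type I fibres, and its chains come from COL5A1, COL5A2 and COL5A3. In HN4/DDP COL5A1 and COL5A2 differed in opposite directions. COL5A1 had levels of 1.74 in HN4 and -1.10 in HN4/DDP, a difference of -2.84 (scanner SD 0.21), and of -0.16 in HN30 and 1.09 in HN30/DDP, a difference of 1.25 (scanner SD 0.20). COL5A2 had levels of -2.99 in HN4 and -0.89 in HN4/DDP, higher by 2.10 (scanner SD 0.22), and of -2.47 in HN30 and -2.57 in HN30/DDP, a difference of -0.10. The COL5A2 call in HN4/DDP was lost with the normexp background correction and with a pseudocount. COL5A3 was dim in HN4/DDP, at least 1.30-fold below HN4 with a measured difference of -0.82, and differed by 0.19 in HN30/DDP.

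COL5A1 had 3 probes. The second, at chr9:137734063-137734122 (hg19, plus strand), is shown because it was dim in HN4/DDP and bright in HN4.
COL5A1, second probe: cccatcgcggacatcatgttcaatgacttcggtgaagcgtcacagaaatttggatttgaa
Its level was -1.85 in HN4 and dim at -7.08 in HN4/DDP, against -3.46 in HN30 and -2.84 in HN30/DDP, so that it was at least 8.84-fold lower in HN4/DDP, with a measured difference of -5.24. In HN30/DDP it was higher by 0.61. The last probe differed by -1.16 in HN4/DDP. It was dim in HN30, and HN30/DDP lay above it by 1.68-fold or more, with a measured difference of 0.94. Past 1 in this order of directions were COL5A1 and COL8A2 among the collagen genes, and 1.02% of all genes. COL5A1 was within 1 in HN30/DDP with arrays scaled on their median (0.83) and with the mean of the probes (0.93). All 3 COL5A1 probes were lower in HN4/DDP and higher in HN30/DDP, with sizes that ranged from -5.24 to -1.16 and from 0.61 to 1.25.

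COL8A2 encodes a chain of type VIII collagen, a short-chain collagen of hexagonal networks, and was past 2 in opposite directions. Its level was -1.34 in HN4 and -3.72 in HN4/DDP, and -2.23 in HN30 and 0.37 in HN30/DDP. The lowest of the 4 levels was thus in one resistant line and the highest in the other. HN4/DDP differed from HN4 by -2.38 (scanner SD 0.24), and HN30/DDP from HN30 by 2.60 (scanner SD 0.21). The HN4/DDP value was within 2 under 3 of 10 alternatives, at -1.36 with normexp, -1.98 with the pseudocount and -1.74 with the mean of the probes, and the HN30/DDP value under normexp, at 1.91. COL8A1, the other chain of type VIII collagen, had levels of 2.47, 2.18, 1.98 and 1.79 in the same order and differed by -0.29 and -0.19.

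The second COL8A2 probe, at chr1:36563302-36563361 (hg19, minus strand), is shown because it gave both directions again.
COL8A2, second probe: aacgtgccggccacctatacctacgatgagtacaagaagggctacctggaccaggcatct
Here HN4/DDP differed from HN4 by -1.09 (scanner SD 0.23) and HN30/DDP from HN30 by 1.58 (scanner SD 0.22), smaller than at the first probe. With 1 array per condition, the contrast between the lines in COL8A2 and COL5A1 was not tested.

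Type VI collagen forms beaded filaments from chains of COL6A1, COL6A2 and usually COL6A3. COL6A1 had levels of 1.00 in HN4 and 0.67 in HN4/DDP, against 0.98 in HN30 and 3.69 in HN30/DDP. HN30/DDP stood apart from the other 3 arrays, higher than HN30 by 2.71 (6.53-fold, scanner SD 0.20), while HN4/DDP differed from HN4 by -0.33. HN30/DDP was the highest array for COL6A2 too, with levels of -3.85, -3.90, -3.79 and -1.80, differences of -0.05 and 1.99 (scanner SD 0.29 and 0.26), just inside the threshold of 2. COL6A3, COL6A5 and COL6A6 were dim on all 4 arrays.

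The probes of COL6A2 are shown because COL6A2 lay at the threshold. They lie on the plus strand at chr21:47549291-47549350 and chr21:47546086-47546145 (hg19).
COL6A2, first probe: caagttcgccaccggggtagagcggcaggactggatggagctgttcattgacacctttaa
COL6A2, second probe: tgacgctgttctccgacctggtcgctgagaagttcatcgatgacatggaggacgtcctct
The second probe was dim on 3 arrays and had a level of -2.47 in HN30/DDP, a difference of 3.88 that stands for at least 4.47-fold. It was called at 2, which the first probe was not.

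Of the remaining genes called in HN30/DDP, COL2A1, the chain of cartilage type II collagen, had levels of -3.51 in HN4, -2.89 in HN4/DDP and -3.34 in HN30/DDP, but was dim at -6.94 in HN30. The parental array was the one that stood apart, and the difference of 3.60 (scanner SD 1.46) stands for at least 2.44-fold, a bound under the 4-fold of the threshold. COL28A1, a von Willebrand factor A domain collagen, had levels of -2.94, -3.34, -3.03 and -0.60, and was higher by 2.43 in HN30/DDP (scanner SD 0.23). Its second probe had levels of -2.74, -3.24, -2.43 and -3.61 and differed by -1.18 in HN30/DDP (scanner SD 0.25). The probes of COL28A1 disagreed in direction in HN30/DDP, and its call rests on the first of them.

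**Figure D2:**
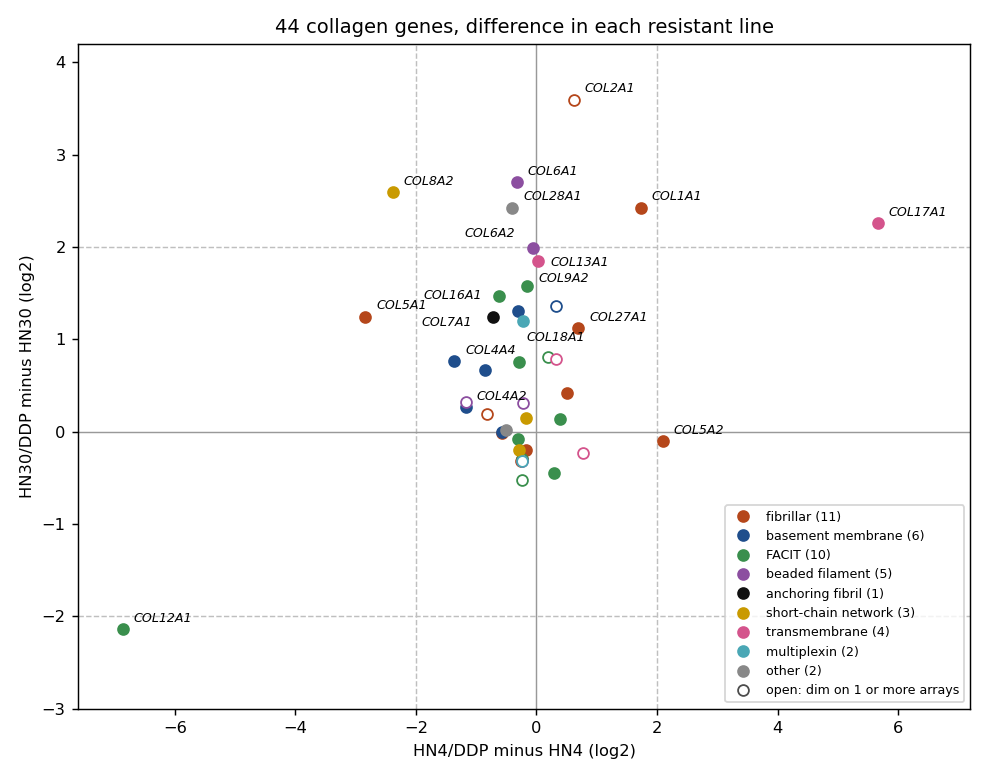
Log2 differences of the 44 collagen genes in HN4/DDP (horizontal axis) and HN30/DDP (vertical axis), coloured by class. Filled points are genes well above background on all 4 arrays and dashed lines mark 2 in either direction. COL12A1 and COL17A1 lie in opposite corners, and 29 points lie above 0 on the vertical axis (65.9%, against 46.9% of all genes), which became 22 of 44 with arrays scaled on their median (30.5% of all genes).

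At the threshold of 1, 3 collagen genes (6.82%) were higher and 5 (11.4%) lower in HN4/DDP, where 5.77% of all genes were higher and 5.36% lower, and 7.86% and 6.68% of those represented by a RefSeq mRNA probe. In HN30/DDP 16 of 44 (36.4%) were higher and 1 was lower, where 12.9% of all genes were higher and 8.67% lower. Among genes represented by a RefSeq mRNA probe 13.6% were higher and 14.5% lower. The 16 genes were COL13A1, COL16A1, COL17A1, COL18A1, COL1A1, COL27A1, COL28A1, COL2A1, COL4A3, COL4A5, COL5A1, COL6A1, COL6A2, COL7A1, COL8A2 and COL9A2. They came from all 9 classes. With arrays scaled on their median 10 genes from 6 classes were higher past 1 in HN30/DDP, where 8.92% of all genes were, without COL18A1, COL27A1, COL4A3, COL4A5, COL5A1 and COL7A1. With the mean of the probes 12 genes from 7 classes were, with 12.6% of all genes.

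The median difference of all 44 genes was -0.24 in HN4/DDP, close to the -0.21 of all genes, and 0.37 in HN30/DDP, where that of all genes was -0.07. The HN30/DDP median was -0.05 when arrays were scaled on their median, which placed all genes at -0.49. Over the 29 collagen genes well above background on all 4 arrays, the median was -0.30 in HN4/DDP, with 21 below 0 (72.4%), and 0.76 in HN30/DDP, with 22 above 0 (75.9%). Of the 22149 genes of the array with the same property 58% were below 0 in HN4/DDP and 46.1% above 0 in HN30/DDP. With arrays scaled on their median 18 of the 29 were above 0 in HN30/DDP, as were 27.2% of all such genes.

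The 6 chains of type IV collagen, the network of the basement membrane, lay mostly below 0 in HN4/DDP and above 0 in HN30/DDP. In HN4/DDP 5 of 6 were below 0 (median -0.71), and in HN30/DDP 5 of 6 were above 0 (median 0.72). Of all genes 62.3% were below 0 in HN4/DDP and 46.9% above 0 in HN30/DDP, where scaling on the array median left 4 of the 6 above 0. Under the 10 alternatives the HN4/DDP median ran from -0.71 to -0.44 and the HN30/DDP median from 0.30 to 1.08. The contrast between the lines was not tested. COL4A2 had levels of 5.87, 4.71, 5.55 and 5.81 and differed by -1.17 in HN4/DDP and 0.27 in HN30/DDP. Its partner in the most common trimer, COL4A1, had levels of 1.12, 0.54, 0.95 and 0.94 and differed by -0.57 and -0.01. HN4/DDP was the lowest of the 4 arrays for both genes.

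COL4A4 had levels of -2.84 in HN4 and -4.20 in HN4/DDP, against -1.29 in HN30 and -0.53 in HN30/DDP, and differed by -1.36 and 0.76. COL4A3, which pairs with it in kidney and lung membranes, was well above background in HN30/DDP alone, at -4.11, which was at least 1.43-fold above HN30. COL4A5 had levels of 2.05, 1.75, 1.60 and 2.91 and differed by -0.31 and 1.31, and COL4A6 had levels of -0.14, -0.99, 0.33 and 1.01 and differed by -0.85 and 0.67. These genes lie head to head in pairs, and in the RefSeq table the starts of COL4A1 and COL4A2 are 127 bases apart on opposite strands, those of COL4A3 and COL4A4 419, and those of COL4A5 and COL4A6 380. COL4A5 and COL4A6 differed in the same direction as each other in each line. COL4A1 and COL4A2 did so in HN4/DDP, but in HN30/DDP COL4A1 lay at -0.01 and COL4A2 at 0.27. COL4A3 and COL4A4 were both above 0 in HN30/DDP and had opposite signs in HN4/DDP, with COL4A3 dim on both arrays there.

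The differences of FACITs other than COL12A1 were smaller. COL9A2, a chain of cartilage type IX collagen, had levels of 0.11, -0.04, -1.61 and -0.03 and was higher by 1.58 in HN30/DDP (scanner SD 0.21), where HN30 was the low array of the 4. Its second probe was bright in HN30/DDP alone, with a measured difference of 0.15 from HN30. Its partner chains COL9A1 and COL9A3 differed by -0.31 and 0.40 in HN4/DDP and by -0.08 and 0.14 in HN30/DDP. COL16A1 had levels of 4.11, 3.49, 3.62 and 5.10 and differed by -0.62 and 1.48. Over the 10 FACIT genes the median difference was -0.24 in HN4/DDP and 0.03 in HN30/DDP. Over the 11 fibrillar genes it was -0.17 and 0.19. Apart from the FACIT median in HN4/DDP, these medians changed sign with the scaling or the background correction.

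The second COL16A1 probe, at chr1:32148536-32148595 (hg19, minus strand), carries the glycine repeat of the triple helix. It is printed with the COL9A1 probe at chr6:70926717-70926776 (hg19, minus strand) to show the collagen repeat at the level of bases, with the codons that begin with GG at every ninth base in capitals, the codons of the repeating glycine.
COL16A1, second probe: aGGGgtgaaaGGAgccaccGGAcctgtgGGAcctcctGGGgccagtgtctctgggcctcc
COL9A1, first probe: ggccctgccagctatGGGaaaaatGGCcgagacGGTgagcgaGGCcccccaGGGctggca
In each of these probes 5 such codons were found. The COL16A1 helix probe had levels of -1.19, -1.11, -1.26 and -1.36 and differed by 0.08 and -0.10, while the probe used for the gene, at chr1:32118175-32118234, gave 1.48 in HN30/DDP. The COL16A1 value of HN30/DDP thus rests on 1 of its 2 probes.

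**Figure D3:**
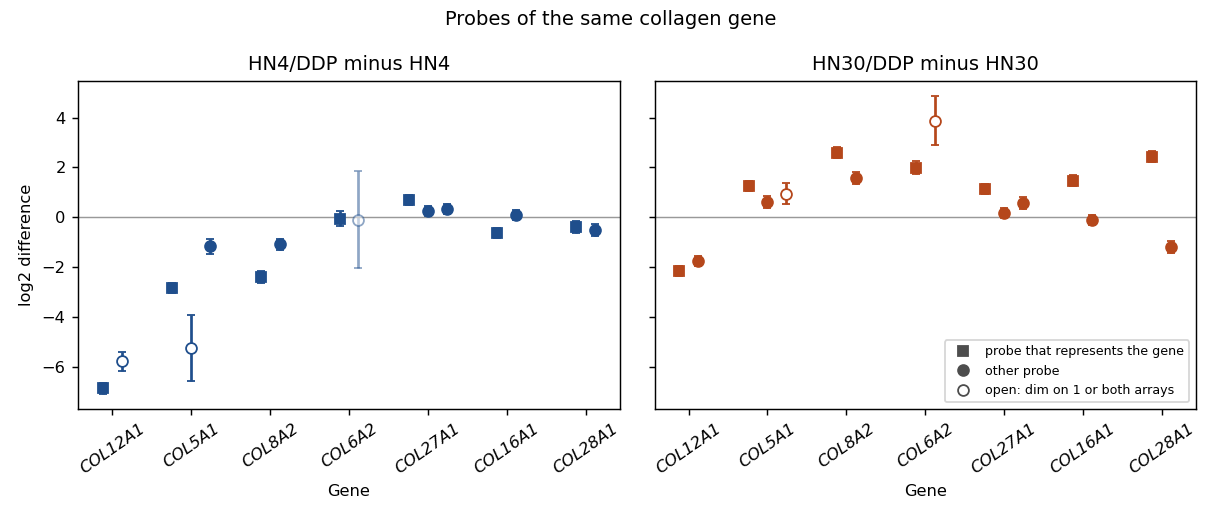
Log2 differences of each probe of 7 collagen genes with more than 1 probe, in HN4/DDP (left) and HN30/DDP (right). Squares mark the probe that represents the gene, bars are the scanner SD, and open symbols are dim on 1 or both arrays. The probes of COL12A1, COL5A1 and COL8A2 lie on the same side of 0 in each line, and those of COL28A1 and COL16A1 lie on different sides in HN30/DDP.

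More than 1 probe was present for 15 of the 44 genes, and the other 29 rest on 1. COL27A1, a fibrillar collagen of cartilage, was higher by 0.70 and 1.12 at the probe used, and its other probes gave 0.25 and 0.33 in HN4/DDP and 0.17 and 0.57 in HN30/DDP. The direction was the same at all 3 probes, but only 1 was past 1 in HN30/DDP.

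Among transmembrane and multiplexin collagens, COL13A1, a collagen of cell adhesions, had levels of -1.99, -1.97, -1.90 and -0.05. HN30/DDP alone stood apart, higher by 1.85 (3.61-fold, scanner SD 0.21). COL18A1, the source of endostatin, had levels of 5.01, 4.78, 4.89 and 6.09 and was higher by 1.20 in HN30/DDP, with -0.23 in HN4/DDP. COL23A1 was well above background only in HN4/DDP and COL25A1 only in the resistant lines. COL23A1 was at least 1.02-fold above its parent cells, and for COL25A1 the bound was 1.15-fold in HN4/DDP and 1.03-fold in HN30/DDP.

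The 11 genes that were well above background on all arrays and within 1 in both lines were COL10A1, COL11A2, COL14A1, COL20A1, COL24A1, COL26A1, COL4A1, COL4A6, COL8A1, COL9A1 and COL9A3. At the probe used for each gene, their differences ran from -0.85 to 0.50 in HN4/DDP and from -0.45 to 0.75 in HN30/DDP. The second COL4A6 probe, bright in HN30/DDP alone, had measured differences of 0.78 and 1.71. The other COL11A2 probes gave 0.78 and 0.84 in HN30/DDP, where the probe used gave -0.20. COL4A6 was past 1 in HN30/DDP with the mean of the probes, and COL4A6 and COL20A1 were with the percentile over bright probes. With 1 array per condition, differences of this size cannot be told from the variation between cultures. Of the genes well above background on 1 to 3 arrays, COL5A3, COL23A1 and COL25A1 were within 1 in both lines.

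The only contrast with more than 1 array a side set both resistant arrays against both parental arrays, in a limma fit over 29521 genes that took the line as a block. It left 1 residual degree of freedom per gene. None of the 34 collagen genes in the fit passed an adjusted p of 0.05, nor did any gene (0%), the smallest adjusted p being 0.382. At an unadjusted p under 0.05 were 3 collagen genes, COL12A1, COL17A1 and COL1A1, and 2537 genes in all, which is 8.59%. The mean difference over both lines (n = 2) was -4.50 ± 1.19 for COL12A1, from -6.86 and -2.14, with an adjusted p of 0.499 by limma. Here ± is the moderated SE of limma, which draws on the spread of all genes and not on the 2 lines alone. For COL17A1 the mean difference was 3.96 ± 0.90, from 5.67 and 2.26, with an adjusted p of 0.479 by limma. For COL1A1 it was 2.08 ± 0.38, from 1.73 and 2.43, with an adjusted p of 0.445 by limma. Each of these 3 genes had the same direction in both lines. A count of 0 in a fit of this size says nothing about stability. With the arrays scaled on their median, COL12A1 and COL17A1 passed, with 297 genes in all (1.01%).

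Genes that make, modify, cross-link or bind collagen were read from lists and counted at the threshold of 1, beside the shares of all genes given above. The 23 genes of chain synthesis and modification had medians of -0.04 in HN4/DDP and -0.12 in HN30/DDP. In HN4/DDP 1 was higher and 2 were lower, and in HN30/DDP 1 was higher and 1 lower. PLOD2, the lysyl hydroxylase of the chain ends, was the lowest in HN4/DDP, with levels of 3.95 in HN4 and 1.74 in HN4/DDP, a difference of -2.21. FKBP7, a peptidyl-prolyl isomerase of the endoplasmic reticulum, was the highest there at 1.36. In HN30/DDP the extremes were P3H1, a prolyl hydroxylase, at 1.05 and PPIB, its partner isomerase, at -1.25. SERPINH1, the collagen chaperone, differed by 0.33 and -0.46.

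Of 13 genes of maturation and cross-linking, none was higher and 1 was lower in HN4/DDP, and 3 were higher and 2 lower in HN30/DDP. LOX, the lysyl oxidase that cross-links fibres, had levels of -1.77, -3.61, -1.75 and -0.23, with differences of -1.85 and 1.52 in opposite directions. LOXL4 had levels of 1.33, 2.16, -0.56 and 3.26 and was higher by 0.83 and 3.82, the largest value of this list in each line. LOXL3 differed by -0.89 and -2.28.

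Of 10 collagen receptors and uptake genes, 2 were lower in HN4/DDP and 1 was higher in HN30/DDP. MRC2, the uptake receptor for collagen fragments, was the lowest of the list in HN4/DDP and the highest in HN30/DDP, with levels of 1.14, -0.94, 3.02 and 5.92 and differences of -2.08 and 2.90. ITGB1, the common chain of the collagen-binding integrins, differed by -1.15 and -0.06. ITGA11 was the highest in HN4/DDP at 0.78, and ITGA1 the lowest in HN30/DDP at -0.97.

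Among 15 proteins that bind fibrils, 3 were higher and 1 lower in HN4/DDP, and 5 were higher and 2 lower in HN30/DDP. THBS1, thrombospondin 1, had levels of 2.26, -0.99, 2.71 and 0.73 and was lower in both lines, by differences of -3.25 and -1.98. FBLN1, fibulin 1, had levels of 4.07, 5.12, 4.38 and 5.44 and was higher by 1.05 and 1.06. BGN, the proteoglycan biglycan, was the highest in HN30/DDP among genes bright on both arrays, at 1.69. Of 15 genes of the TGF-beta pathway, a regulator of collagen genes in many cells, 2 were higher and 5 lower in HN4/DDP and 1 was higher and 1 lower in HN30/DDP. LTBP1, which holds latent TGF-beta in the matrix, was higher by 1.29 in HN4/DDP. It was dim in HN30, and HN30/DDP was at least 10.0-fold brighter. The lowest value in HN4/DDP among genes bright on both arrays was that of LTBP2 at -2.28, and the highest was that of TGFBR3 at 1.42. In HN30/DDP these were CCN2 at -1.49 and TGFB2 at 0.61. TGFB2 was dim in HN4/DDP, at least 7.91-fold below HN4, with a measured difference of -3.38.

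**Figure D4:**
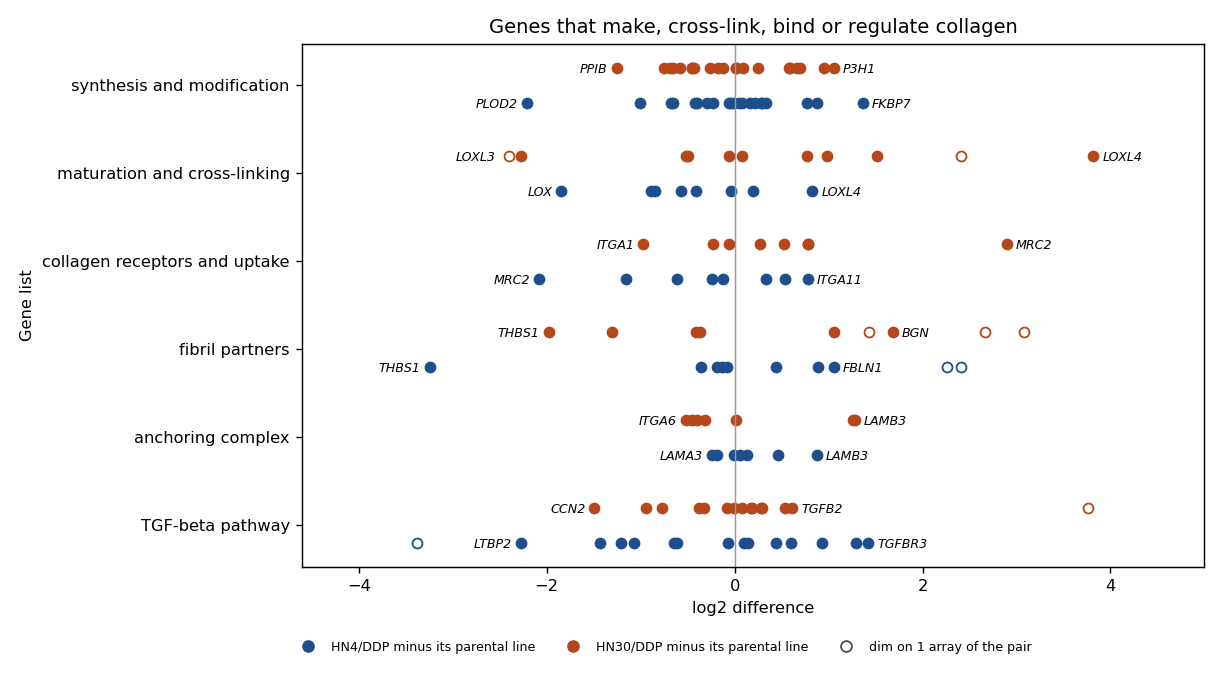
Log2 differences in HN4/DDP (blue) and HN30/DDP (orange-brown) of genes in 6 lists that make, cross-link, bind or regulate collagen (1 point a gene, genes dim on both arrays left out). Open points are dim on 1 array. The named extremes are bright on both arrays, and MRC2 and LOX lie on opposite sides of 0 in the 2 lines.

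The background correction, the scaling and the choice of probe bear on these values. Of the 12 differences past 2, 7 were within 2 with the normexp correction and its offset of 50. The parts of the background model and of the offset were not told apart. Under this correction 1.31% of all genes were higher past 2 in HN30/DDP. With it COL28A1 was higher by 1.59, COL1A1 by 1.56 and COL2A1 by 0.62 in HN30/DDP, and COL5A2 was higher by 1.41 in HN4/DDP. With the mean of the probes COL28A1 was higher by 0.62 in HN30/DDP. The differences of the called genes kept their direction under all 10 alternatives on values. As these genes were picked for differences past 2, little else could come out, and this is no support for them. With RefSeq mRNA probes only nothing could change, since these genes already had such a probe. The second COL28A1 probe by itself went the other way in HN30/DDP, at -1.18.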

How the data were processed

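RNA of 4 cell lines was measured on 1 one-colour array each. Per array, the authors deposited Agilent Feature Extraction output (version 10.7.1.1, hg19 coordinates), whose processed intensity is already background-subtracted, with surrogates for the dimmest spots and a mark for those well above background. A series-wide log2 table was deposited too, with the same quantiles on all arrays and a median of 4.65. How the authors made it is not stated in the sources read here.

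From 60901 spots that are not controls, outlier spots were left out, log2 was taken and the 75th percentile of each array (444 to 496 signal units) was subtracted. Spots of a probe were averaged, and of the probes of a gene the one with the highest mean of the 4 arrays was used. All arrays shared 1 slide and 1 scan, and no spot was saturated. Well above background were 55.3% to 63.8% of all genes. Folds against a dim array are lower bounds, taken against the lowest log2 signal well above background there (-4.99 to -4.63) or the own signal of the probe where that was higher.

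The members and the gene lists were chosen with earlier results of these data known. From the lists of the anchoring complex and of the TGF-beta pathway 1 gene each is not reported here and was left out of their counts. Named are the collagen genes called at 2, then those past 1 in both lines, in the same or in opposite directions. For each list, those past 1 in both lines and the extremes of each line are named. Levels on every array are given for these collagen genes and for some of the list genes. Other collagen genes are named by class. The markers of other cell types given with differences were chosen after their values were seen. The contrast of both resistant against both parental arrays was fitted with limma 3.58.1 (R 4.3.3, lmFit, eBayes with trend, Benjamini-Hochberg over all genes). The labels do not say that arrays came from separate cultures, and depth is not defined for arrays. Procedures were tested on simulated data. For limma these had the same spread for all genes and the same change in both lines, unlike the arrays. They check the procedure and not the results. Other steps used Python 3.11.15 with numpy 2.4.6 and pandas 2.3.3. Alternatives were the normexp background correction with an offset of 50, the scaling, a pseudocount of 16, the choice of probe, dim signals at their bound and the deposited log2 values. Removal of the trend of differences with brightness, and the alternatives for the counts past 1, were added after seeing the data. Sequences of the promoters are from RefSeq on GRCh38.p14, and those of the probes from the scanner output. Collagen genes on chromosome 8 are given without coordinates.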

Additional observations from a re-analysis of the deposited data

Results flagged for a closer look

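COL5A1 and COL8A2 differed in opposite directions in the 2 lines. For COL5A1 the difference was -2.84 in HN4/DDP against 1.25 in HN30/DDP, and for COL8A2 it was -2.38 against 2.60. With 1 array per condition this contrast was not tested. With arrays scaled on their median the HN30/DDP difference of COL5A1 was 0.83, and with the mean of the probes 0.93. All probes of both genes gave these directions. Past 1 in this order of directions were 1.02% of all genes, and past 2, as COL8A2 was, 0.122%.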

How the results depend on the processing

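The limma fit paired each resistant array with its parent through the line as a block, and without the block it called 0 collagen genes as well. With normexp, 1 gene was higher in HN4/DDP (0.605% of all genes) and 1 in HN30/DDP (1.31%), where 1 was lower (0.859%), and the HN30/DDP median was 0.10. With a pseudocount of 16, 1 gene was higher in HN4/DDP (1.14% of all genes). Under 5 alternatives (the 75th percentile over bright probes, quantile normalization, the mean of the probes, the deposited log2 values and the removal of the brightness trend) 0 genes were lower in HN30/DDP, because COL12A1 lay within 2, between -1.95 and -1.74. There 6 to 8 genes were higher, so that the split of 6 higher to 1 lower moved. With a threshold of 1, 16 were higher in HN30/DDP and 5 lower in HN4/DDP, and the 16 became 10 with scaling on the array median. The HN30/DDP median was -0.047 with scaling on the array median, which shifted all genes by -0.42. It was 0.74 with the percentile over bright probes, which shifted them by 0.36, 0.61 without the brightness trend, 0.76 over genes bright on both arrays, 0.69 as a mean, 0.21 with the pseudocount and 0.17 with dim signals at their bound. The HN4/DDP median ran from -0.29 to -0.11 over its alternatives. The limma count was 2 with scaling on the array median, where the median total degrees of freedom were 12.1 in place of 4.40, and 0 under the other 7. All other counts were within 1.5 times those reported. The number of arrays and the dim signals of 15 of the 44 genes limit these values.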
